A study of Mus musculus with 8 samples.

Results

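Of 10 genes of the BCL2 family, 8 had a probe set annotated to that gene alone among the 30063 genes measured on arrays of mouse thoracic aortic endothelium. The 8 were the pro-survival genes Bcl2, Bcl2l1, Mcl1, Bcl2a1a and Bcl2a1d, the effector gene Bak1, and the BH3-only genes Bbc3 and Bcl2l11. Bcl2a1b was present only on a probe set annotated to Bcl2a1a as well, and Bax was not analysed here. The set was chosen by the size of the difference of Bcl2a1a between the groups compared below. That comparison is therefore given for all 8 genes as a description and without a test.

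The samples were 4 EKO aortas and 4 control aortas, each from a different female mouse and each measured on its own Affymetrix Mouse Transcriptome Array 1.0. All mice carried Cdh5-CreERT2, a tamoxifen-inducible recombinase under an endothelial promoter, and floxed Mef2c alleles, a transcription factor gene. EKO mice (Mef2cCdh5EKO) received tamoxifen and control littermates received sunflower seed oil with 10% ethanol, once daily for 5 days from 10 weeks of age, and aortas were collected on day 14 after injections began. Drug and deletion were thus given together and cannot be told apart. RNA was flushed from the aortic lumen with TRIzol, so each value comes from a mixed lysate.

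BCL2 family proteins decide whether the outer mitochondrial membrane is opened during apoptosis. Pro-survival members (BCL2, BCL-XL from Bcl2l1, MCL1 and the A1 proteins from the Bcl2a1 genes) hold the effectors BAX and BAK in check, and BH3-only proteins such as PUMA (Bbc3) and BIM (Bcl2l11) bind and block the pro-survival members. In the mouse the A1 gene is present as several near-identical copies on chromosome 9, and A1 is best known from leukocytes, where NF-kB induces it. BCL-XL and MCL1 are known as survival factors of many cell types, endothelium among them.

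The RefSeq sequences upstream of the Bcl2a1 genes are shown to describe how alike the copies are before their starts. Transcript and probe sequences were not compared, so these sequences do not show what the probes read. Each is the 250 bases before the annotated start in GRCm38.p6, 5′ to 3′, with matches to the ETS-type motif GAGGAA on either strand in capitals. The window of Bcl2a1a is chr9:88956670-88956919 on the plus strand, that of Bcl2a1b chr9:89199023-89199272 on the plus strand, and that of Bcl2a1d chr9:88731851-88732100 on the minus strand.
Bcl2a1a: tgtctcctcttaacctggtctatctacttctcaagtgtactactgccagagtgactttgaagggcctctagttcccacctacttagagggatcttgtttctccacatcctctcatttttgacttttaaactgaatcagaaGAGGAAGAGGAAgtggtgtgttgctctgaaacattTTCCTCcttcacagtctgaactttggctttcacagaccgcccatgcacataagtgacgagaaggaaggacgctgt
Bcl2a1b: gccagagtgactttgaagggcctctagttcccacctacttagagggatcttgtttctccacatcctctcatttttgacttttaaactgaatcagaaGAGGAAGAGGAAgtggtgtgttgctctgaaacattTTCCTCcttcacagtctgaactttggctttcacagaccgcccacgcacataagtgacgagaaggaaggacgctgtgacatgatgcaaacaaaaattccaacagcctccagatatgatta
Bcl2a1d: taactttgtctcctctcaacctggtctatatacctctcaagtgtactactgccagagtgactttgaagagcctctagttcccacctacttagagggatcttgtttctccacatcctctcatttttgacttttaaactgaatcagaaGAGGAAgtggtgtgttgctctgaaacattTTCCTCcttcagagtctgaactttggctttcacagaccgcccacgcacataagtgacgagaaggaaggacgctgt

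In a local alignment of the 300-base windows around the starts, Bcl2a1a and Bcl2a1b shared 254 of 256 aligned positions (99.2%), with no gap, and the annotated start of Bcl2a1b lay 44 bases further downstream. Bcl2a1a and Bcl2a1d shared 288 of 300 positions (96.0%), with 6 gap positions, and Bcl2a1b and Bcl2a1d 247 of 256 (96.5%). The longest run without a difference common to all 3 windows was 84 bases. Bcl2a1c, a further copy outside the chosen set, matched Bcl2a1a at 182 of 190 positions (95.8%).

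The Bcl2a1 windows held GAGGAA 3 times in Bcl2a1a, 3 times in Bcl2a1b and 2 times in Bcl2a1d, and 23.3% of the 32851 windows of all genes held at least 1 match. A loose AP-1 type pattern, TGANTCA on either strand with N for any base, occurred once in each of the 3, against 6.75% of all windows. Its letters were TGAATCA in each, and it did not overlap GAGGAA. As the 3 windows are near-identical, these are not separate finds. The window of Bcl2a1c held GAGGAA 4 times and the AP-1 type pattern 0 times. The consensus motifs of NF-kB and MEF2 had no match in the Bcl2a1 windows and were found in 7.25% and 2.92% of all windows. Over the 15 windows of the 10 family genes, NF-kB matches lay in a window of Bcl2l1 and in 1 of Bbc3, and the MEF2 match in another window of Bcl2l1. TATAAA had 0 matches in the 15 windows and occurred in 12.4% of all. A match is a description of these letters alone.

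Values are log2 expression as the authors computed it with SST-RMA, so a difference of 1 is a doubling, and levels of different probe sets are not compared with each other. In the comparison over 16232 genes with a mean level above 6.14, the median of all probe sets, 0 genes (0%) passed a limma adjusted p of 0.05 and 1449 had an unadjusted p under 0.05. The groups did not overlap in 987 genes (6.08%). In 0 of the 8 family genes were the groups free of overlap. All 8 passed the level filter, 5 of them higher and 3 lower in EKO aortas. Their median difference was 0.05, and that of all genes was -0.02, with 44.9% of genes higher.

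Of 12 endothelial markers 10, Cdh5 and Pecam1 among them, read above the negative control medians on all 8 arrays, and Kdr and Robo4 on 0 of 8. The mean of the 12 lay between 12.97 and 13.22 in EKO and between 12.99 and 13.26 in control arrays. Array medians over the tested genes spanned 8.43 to 8.53, and medians of the array's negative control probe sets spanned 7.34 to 7.45. Mef2c averaged 9.75 ± 0.20 in EKO and 9.77 ± 0.11 in control arrays (SD, n = 4 each). Which exons were floxed is not stated in the labels, so this probe set of the whole transcript cluster cannot check the deletion. Adipocyte markers had the largest SD within groups of the 13 lists and lay between 8.08 and 10.43 in EKO and between 8.66 and 11.03 in control aortas.

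**Figure D1:**
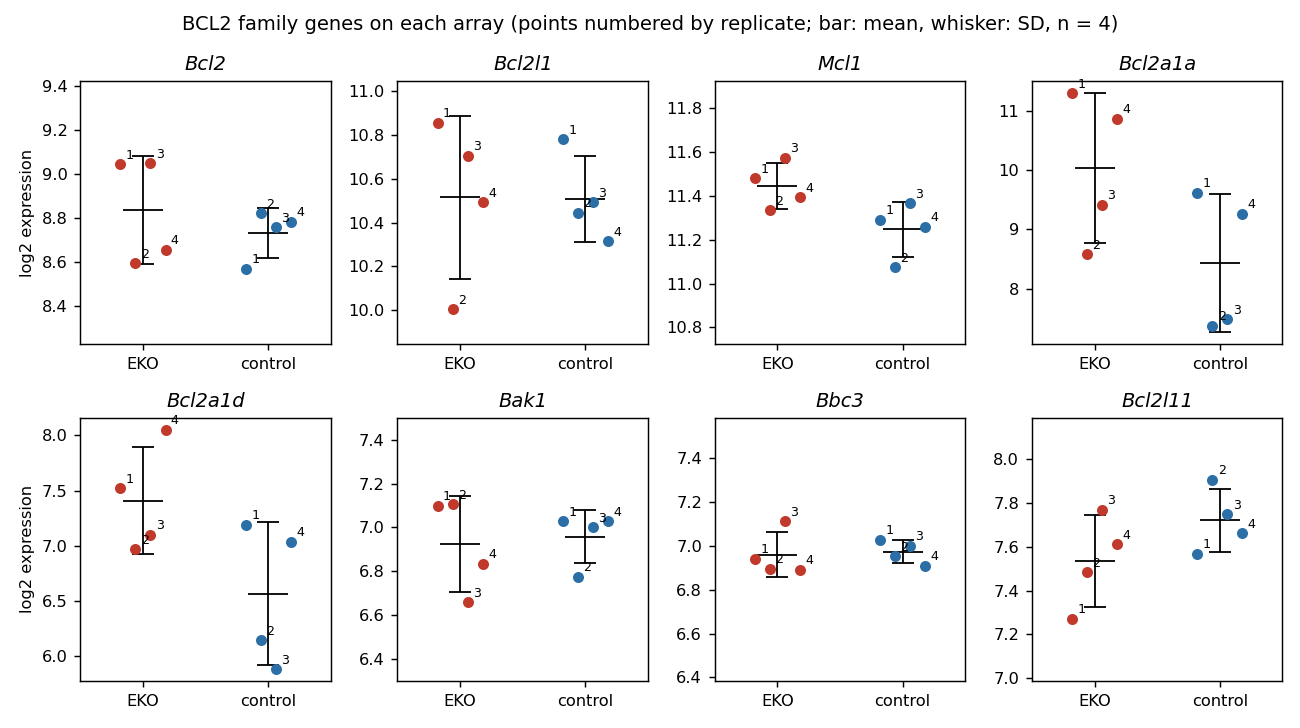
Log2 expression (vertical axes) of the 8 BCL2 family genes on each of the 4 EKO (red, left) and 4 control arrays (blue, right), points numbered by replicate, bars for the mean and whiskers for the SD. The vertical scales differ between genes. Bcl2a1a spreads over 8.58 to 11.30 in EKO and 7.37 to 9.62 in control arrays, while Bbc3 stays between 6.89 and 7.11 on all 8.

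Bcl2a1a had the largest difference of the family. It read 11.30, 8.58, 9.41 and 10.87 on EKO arrays 1 to 4, against 9.62, 7.37, 7.48 and 9.26 on control arrays 1 to 4. EKO arrays 1 and 4 lay above every control array, whereas EKO arrays 2 and 3 lay within the control range. The means were 10.04 ± 1.26 in EKO and 8.43 ± 1.17 in control aortas (SD, n = 4 each). EKO minus control was 1.61 (SE 0.72), or 3.05-fold. Of the 16232 genes, 5 had a larger difference in absolute size and 2 a larger positive one, and it was this position that led to the choice of the family. Its differences lay between 1.19 without EKO array 1 and 2.09 without EKO array 2. More cells that carry the transcript and more transcript per cell cannot be told apart in such lysates.

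Bcl2a1d went the same way with a smaller spread. It read 7.52, 6.97, 7.10 and 8.05 on EKO arrays 1 to 4, against 7.19, 6.15, 5.88 and 7.04 on control arrays 1 to 4. EKO arrays 1 and 4 were again above all control arrays, and only those 2 of the 8 arrays lay above the median of the negative controls. The means were 7.41 ± 0.49 in EKO and 6.56 ± 0.65 in control aortas, a difference of 0.85 (SE 0.34). With all 4 control values below that median, the size of this difference is uncertain. The probe set annotated to both Bcl2a1a and Bcl2a1b read 9.80, 7.75, 8.46 and 9.09 on EKO arrays 1 to 4, against 8.07, 7.33, 6.60 and 8.05 on control arrays 1 to 4. It differed by 1.26, and 3 of its 4 EKO values were above every control value. It is credited to neither gene. Bcl2a1c, whose mean was under the level filter, read 7.35, 5.90, 6.17 and 6.43 on EKO arrays 1 to 4, against 6.04, 5.54, 5.25 and 6.18 on control arrays 1 to 4, a difference of 0.71. It lay above the negative control median on 0 of the 8 arrays.

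The Bcl2a1 probe sets varied together from array to array. Bcl2a1a and Bcl2a1d correlated over the 8 arrays with Pearson r = 0.933 and Spearman rho = 0.952. These values include the group difference that chose Bcl2a1a and are given without a test. Leaving out the 2 arrays that lay farthest from the median of Bcl2a1a gave r = 0.975. Over the 6 pairs that the 4 probe sets form, r lay between 0.795 and 0.969. With the group means subtracted the 6 values were 0.664 to 0.955, and 0 pairs passed (two-sided exact permutation within groups, smallest p adjusted over 22 relations 0.0573). Since the genes are near-identical, the 4 probe sets may read the same transcripts. Transcript and probe sequences were not compared, and which copy was expressed is uncertain.

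**Figure D2:**
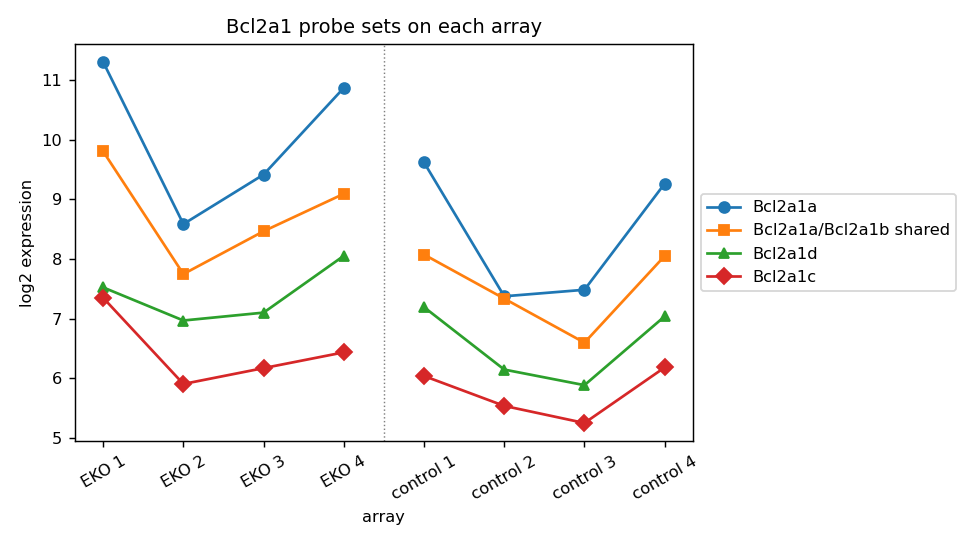
Log2 expression of the Bcl2a1 probe sets (vertical axis) on EKO arrays 1 to 4 and control arrays 1 to 4 (horizontal axis). Lines only join the points of a probe set within a group, and heights of different probe sets are not comparable. In each group arrays 1 and 4 read higher than arrays 2 and 3 in all 4 probe sets.

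Among the other pro-survival genes, Mcl1, which encodes a short-lived guardian of mitochondria, was higher in EKO aortas by 0.20 (SE 0.09) or 1.15-fold. It read 11.48, 11.33, 11.57 and 11.40 on EKO arrays 1 to 4, against 11.29, 11.07, 11.37 and 11.26 on control arrays 1 to 4. Of the EKO arrays 3 lay above every control array, and EKO array 2, at 11.33, lay just below control array 3, at 11.37. The difference kept its direction in all 17 alternatives, between 0.14 without control array 2 and 0.24 without control array 3.

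Bcl2, the founding member of the family, differed by 0.10 (SE 0.13). It read 9.04, 8.59, 9.05 and 8.66 on EKO arrays 1 to 4, against 8.57, 8.82, 8.76 and 8.78 on control arrays 1 to 4. EKO arrays 1 and 3 were above the control range and the other two within it, and leaving out EKO array 3 gave a difference of 0.03, leaving out EKO array 2 one of 0.18. Bcl2l1 had nearly the same mean in both groups, 10.51 ± 0.37 in EKO and 10.51 ± 0.20 in control aortas, a difference of 0.01 (SE 0.18). It read 10.86, 10.01, 10.70 and 10.49 on EKO arrays 1 to 4, against 10.78, 10.45, 10.49 and 10.32 on control arrays 1 to 4, with the highest and the lowest of the 8 values both among the EKO arrays. Its sign turned in 4 of the 17 alternatives, to -0.11 without EKO array 1, while it was 0.18 without EKO array 2.

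The effector gene Bak1 read 7.10, 7.10, 6.66 and 6.84 on EKO arrays 1 to 4, against 7.03, 6.78, 7.0 and 7.03 on control arrays 1 to 4. It differed by -0.03 (SE 0.12), with a sign that turned to 0.00 when arrays were centred and to 0.05 without EKO array 3, and 0 of the 8 arrays lay above the median of the negative controls. Among the BH3-only genes Bbc3, a p53 target, read 6.94, 6.90, 7.11 and 6.89 on EKO arrays 1 to 4, against 7.03, 6.95, 7.0 and 6.91 on control arrays 1 to 4. It differed by -0.01 (SE 0.07), turned to 0.02 when arrays were centred, and likewise read below the negative control medians on all 8 arrays. Values this low may hold little signal from the gene.

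Bcl2l11 was the member furthest below control. It read 7.27, 7.48, 7.77 and 7.61 on EKO arrays 1 to 4, against 7.57, 7.90, 7.75 and 7.66 on control arrays 1 to 4. No EKO value exceeded the highest control value, and EKO arrays 3 and 4 lay within the control range. The means were 7.53 ± 0.21 and 7.72 ± 0.14, in EKO and control aortas, a difference of -0.19 (SE 0.12) that stayed negative in all 16 alternatives (-0.26 to -0.10). Bcl2l11 read close to the negative controls and lay above their median on 7 of the 8 arrays. The exception was EKO array 1, without which the difference was -0.10.

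The spread between arrays of a group, which does not enter the group difference, was widest for the Bcl2a1 genes among the 8. The within-group SD was 1.22 for Bcl2a1a, larger than that of 99.7% of the genes tested, and 0.57 for Bcl2a1d, larger than that of 96.8%. The median of all genes was 0.15. Bcl2l1 followed at 0.30 (84.5%), Bcl2 at 0.19 (64.4%), Bcl2l11 at 0.18 (60.8%) and Bak1 at 0.18 (59.5%). Mcl1, at 0.11 (30.5%), and Bbc3, at 0.08 (13.3%), varied less than most genes.

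**Figure D3:**
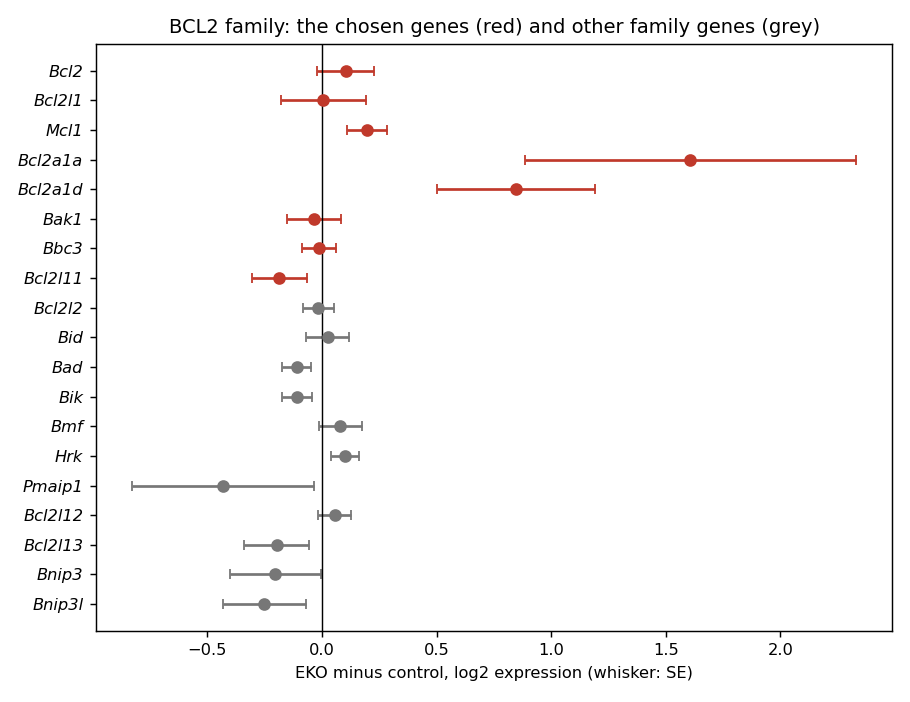
EKO minus control on the log2 scale (horizontal axis) with the SE of the limma fit as whiskers, for the 8 chosen family genes (red) and the 11 tested genes of the wider family (grey). Bcl2a1a at 1.61 and Bcl2a1d at 0.85 stand to the right of all others, which lie between -0.43 and 0.20.

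In the wider BCL2 family, 0 of 11 tested genes passed the threshold in the fit over all genes, with 4 higher and 7 lower and a median difference of -0.11. The BH3-only gene Pmaip1, which encodes NOXA, differed by -0.43 (SE 0.40, limma adjusted p = 0.732). It read 7.73, 7.73, 7.70 and 6.79 on EKO arrays 1 to 4, against 8.51, 8.72, 7.30 and 7.14 on control arrays 1 to 4, so that only control arrays 1 and 2 stood above the EKO range. The mitophagy receptors Bnip3l (-0.25) and Bnip3 (-0.20) and Bcl2l13 (-0.20) had limma adjusted p of 0.668, 0.749 and 0.667. The BH3-only genes Bad and Bik each differed by -0.11, Hrk by 0.10, Bmf by 0.08 and Bid by 0.02. Hrk was the single gene of the 11 without overlap, against 6.08% of all genes, at 6.80 to 6.90 in EKO and 6.67 to 6.79 in control arrays, and lay below the negative control medians. Bcl2l12 differed by 0.06 and Bcl2l2, a pro-survival gene, by -0.02. The other 4 with a probe set besides Bcl2a1c, namely Bcl2l10, Bok, Bcl2l14 and Bcl2l15, had means under the level filter and differed by -0.06, 0.06, 0.11 and 0.03.

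Downstream and upstream genes of the pathway were close to control as lists. Of 12 tested genes of the apoptosome, the caspases and their inhibitors 0 passed, 8 were higher and 4 lower, and the median was 0.02. Casp8, the initiator caspase of death receptors, differed by 0.16 (SE 0.09, limma adjusted p = 0.612). Its groups did not overlap, as was so for 6.08% of all genes. The IAP antagonist Diablo differed by -0.07, Casp2 by -0.06 and Cycs, which encodes cytochrome c, by -0.44 (SE 0.59). Cycs read 12.70 to 14.59 in EKO and 12.94 to 15.17 in control arrays. Of 10 tested p53 targets 0 passed, 5 were higher and 5 lower, with a median of 0.01. The death receptor gene Tnfrsf10b differed by -0.73 (SE 0.58, limma adjusted p = 0.691), Sesn2 by -0.14, Trp53inp1 by 0.12 and Mdm2, the ubiquitin ligase of p53, by -0.06. Tnfrsf10b read 7.43 to 7.78 on 3 EKO arrays and 9.57 on EKO array 4, against 7.56 to 9.69 on control arrays.

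Of 12 tested NF-kB inducible genes 0 passed, 9 were higher and 3 lower in EKO aortas, with a median difference of 0.12. The chemokine gene Ccl5 differed by 0.50, Il1b by 0.41, the feedback inhibitor Tnfaip3 by 0.37 and Nfkbia by 0.22 (limma adjusted p = 0.600 to 0.683). Ccl5 lay above the negative control median on EKO array 2 alone, at 8.01, and Il1b on 3 of the 8 arrays. The list was highest on EKO array 2, at 9.67, where Bcl2a1a had its lowest EKO value. The mean of Bcl2a1a and Bcl2a1d had no relation to it that passed (Pearson r = -0.239, exact permutation p = 0.585; Spearman rho = -0.167, exact permutation p = 0.703). The Pearson p adjusted over 22 relations was 0.902. These values include the group difference that chose Bcl2a1a and are a description. With group means subtracted r was -0.696 (exact permutation p = 0.0799, adjusted 0.220).

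**Figure D4:**
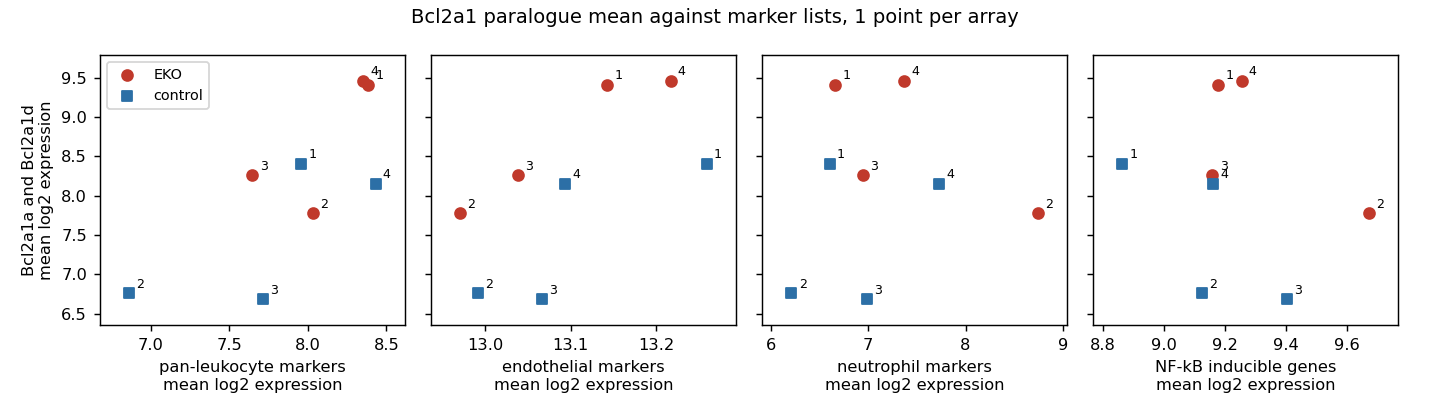
Mean log2 expression of Bcl2a1a and Bcl2a1d (vertical axis) against the mean log2 expression of pan-leukocyte markers, endothelial markers, neutrophil markers and NF-kB inducible genes (horizontal axes), 1 point per array, numbered by replicate, EKO in red circles and control in blue squares. The correlations are 0.751, 0.652, 0.0793 and -0.239, and none passed the adjustment over 22 relations. They include the group difference that chose Bcl2a1a.

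No list of markers of other cells had a relation to the Bcl2a1 genes that passed the adjustment. Here and for the lists below, values over all 8 arrays include the group difference that chose Bcl2a1a. They and their p are therefore a description, and only the values with group means subtracted leave that difference out. All 10 pan-leukocyte genes, Ptprc (CD45) and Tyrobp among them, were higher in EKO aortas and 0 passed, with a median of 0.30. That count leans on control array 2. Tyrobp read 6.58 there, against 8.27 to 9.30 on the other control arrays and 8.11 to 9.30 on EKO arrays. The mean of the list was 7.65 to 8.38 in EKO arrays. In control arrays it was 6.86 on array 2 and 7.71 to 8.43 on the others. The mean of Bcl2a1a and Bcl2a1d correlated with it with Pearson r = 0.751 (exact permutation p = 0.0271, adjusted over 22 relations 0.0852) and Spearman rho = 0.500 (exact permutation p = 0.216, adjusted 0.528). With the 2 arrays farthest from the median of the markers left out, r was 0.796. It was 0.718 with group means subtracted, and 0.659 to 0.811 with each array left out in turn. The part of leukocyte content in the Bcl2a1 difference was not tested.

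Neutrophil markers were also higher in EKO aortas in 8 of 8 tested genes, with 0 passing and a median of 0.43, yet they followed another pattern. Their mean was highest on EKO array 2, at 8.74, against 6.66 to 7.37 on the other EKO arrays and 6.21 to 7.73 on control arrays. It lay above the negative control median on 3 of the 8 arrays. Pearson r with the Bcl2a1 mean was 0.0793 (exact permutation p = 0.870, adjusted 0.935) and Spearman rho -0.0476 (exact permutation p = 0.935, adjusted 1.0). S100a9 and S100a8, which encode calprotectin, read highest on EKO array 2, where Bcl2a1a read 8.58, below its other EKO values.

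For endothelial markers Pearson r was 0.652 (exact permutation p = 0.0817, adjusted 0.225) and Spearman rho 0.714 (exact permutation p = 0.0576, adjusted 0.181). With group means subtracted r was 0.884 (exact permutation within groups, p = 0.00521, adjusted 0.0573). Leaving out the 2 arrays with the most extreme endothelial values gave 0.622. The list itself was 5 genes higher and 7 lower, 0 passing, with a median of -0.01. Its genes varied unevenly, with a within-group SD of 0.97 for Emcn and 0.63 for Cldn5. That of Cdh5 was 0.08 and that of Pecam1 0.05. Which genes of the list carry the relation was not tested.

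The other lists gave Pearson r between -0.495 and 0.420 with the Bcl2a1 mean, with adjusted permutation p of 0.476 to 0.948. Macrophage markers (4 higher and 4 lower of 8 tested, median -0.02) had r = 0.420. Lymphocyte markers (4 higher and 3 lower, median 0.20) had r = 0.0376, and smooth muscle markers (6 higher and 3 lower, median 0.02) r = 0.137. The mean of the lymphocyte markers lay above the negative control median on 0 of the 8 arrays, and that of the macrophage markers on 4. Of the macrophage markers, Adgre1, Mrc1, C1qa and C1qc each did so on 0 of the 8. Adipocyte markers (10 of 10 lower, median -0.57) had r = 0.131, and fibroblast markers (2 higher and 7 lower, median -0.17) r = -0.163. The 2 tested erythroid genes, both lower in EKO aortas, had r = -0.495. No gene of these lists passed the threshold. Their Spearman rho lay between -0.643 and 0.238, with adjusted permutation p of 0.264 to 1.0.

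No relation of the remaining family genes to adipocyte markers passed. Pearson r with the adipocyte markers was 0.344 for Bcl2l1, 0.280 for Bak1, 0.232 for Bcl2, 0.197 for Mcl1, -0.0588 for Bbc3 and -0.140 for Bcl2l11, with adjusted permutation p of 0.811 to 0.935. Spearman rho lay between -0.0476 and 0.238 (adjusted permutation p = 1.0 for each). With the markers as a covariate in limma the difference of Bcl2a1a was 1.95 (SE 0.68), that of Bcl2a1d 0.92 (SE 0.37) and that of Mcl1 0.24 (SE 0.08).

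The genes whose pattern over the 8 arrays was most like that of Bcl2a1a and Bcl2a1d were found by the highest Pearson r after subtraction of the group means, among 10852 genes with established symbols. As the highest values of so large a search, they are a description. Stap1, a signalling adaptor, was first (0.992), followed by the membrane protein gene Ms4a6c (0.975), the myeloid receptor genes Cd300e (0.974) and Cd300a (0.969), Adgre4 (0.967), an adhesion G protein-coupled receptor of myeloid cells, and Slc11a1 (0.966), a metal transporter of phagosomes. The phosphatase gene Ptpn14 (0.963), Ppp2r3d (0.953), the peroxisomal gene Acbd5 (0.953) and Cd300ld (0.949) completed the 10. Of these only Ptpn14 and Acbd5 read above the negative control median on all 8 arrays, Ms4a6c on 7 and Adgre4 on 6. Cd300a did so on 2, Stap1 and Cd300ld on 1 each, and Cd300e, Slc11a1 and Ppp2r3d on 0 of 8, so their patterns rest on values near background.

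Adgre4 read 9.88, 7.62, 8.50 and 9.28 on EKO arrays 1 to 4, against 8.78, 6.79, 7.15 and 8.58 on control arrays 1 to 4, a difference of 1.00 (limma adjusted p = 0.624). Ms4a6c read 9.46, 8.09, 8.21 and 9.67 on EKO arrays 1 to 4, against 9.05, 7.06, 7.36 and 9.13 on control arrays 1 to 4, a difference of 0.71 (limma adjusted p = 0.698). In both, as in Bcl2a1a, arrays 1 and 4 were the highest of each group. Likeness was not the same as a shared group difference, since Ptpn14 differed by -0.12 and Acbd5 by -0.14.

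**Figure D5:**
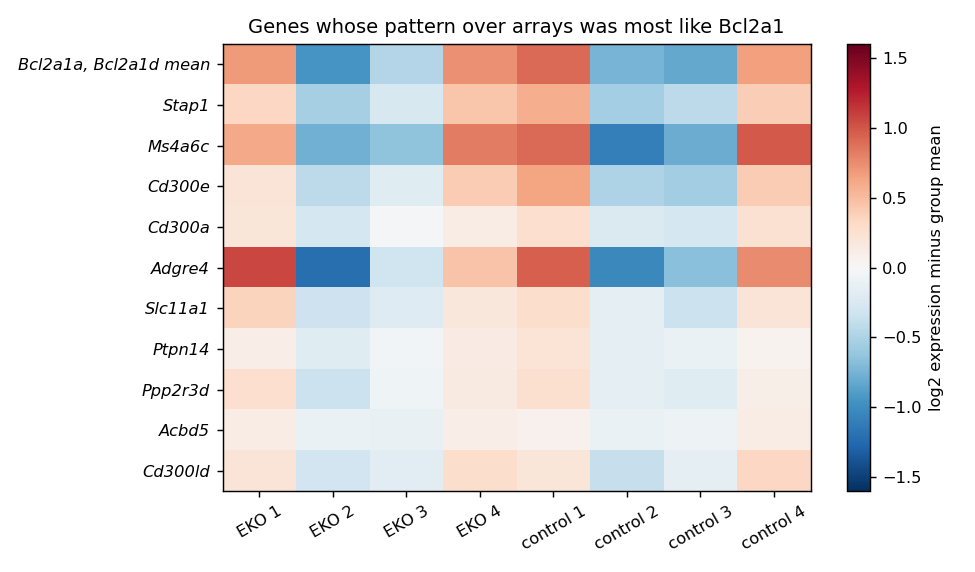
Log2 expression minus the mean of its group (colour, red above and blue below) on EKO arrays 1 to 4 and control arrays 1 to 4 (columns), for the mean of Bcl2a1a and Bcl2a1d (top row) and the 10 genes with the most similar pattern, in order of Pearson r from 0.992 to 0.949. Arrays 1 and 4 of each group are red and arrays 2 and 3 blue in every row.

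The other family genes had different companions by the same measure. Bak1, on chromosome 17, was most like H2-Eb1 (0.982), Btbd9 (0.967) and H2-DMb1 (0.965), which are also on chromosome 17 in RefSeq. The share of the searched genes on that chromosome was not counted, and an effect of position was not tested. H2-Eb1, a class II antigen presentation gene, read 11.87, 11.85, 8.95 and 10.01 on EKO arrays 1 to 4, against 10.50, 8.68, 9.62 and 10.14 on control arrays 1 to 4, a far wider range than the 6.66 to 7.10 of Bak1. Bcl2 was most like Slc27a4 (0.985), Sirpa (0.982) and Acbd3 (0.981), and Bcl2l1 most like Ksr1 (0.980), Taf8 (0.976) and Sipa1l1 (0.968). Mcl1 was most like Mrps23 (0.976), Bzw1 (0.970) and Nr1h3 (0.939). Bbc3 was most like ND6 (0.972), N4bp2l1 (0.954) and the endothelial transcription factor gene Erg (0.950), and Bcl2l11 most like Otub2 (0.984), Sox7 (0.962) and the oestrogen receptor gene Esr1 (0.958). Bak1 and Bbc3 themselves, and N4bp2l1 and Otub2, lay above the negative control median on 0 of 8 arrays.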

How the data were processed

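RNA of 8 mouse aortas was measured on 8 arrays. Per the labels, the authors ran Expression Console and deposited SST-RMA log2 values, 1 per transcript cluster and array. The version and the genome build are not given in the sources used here. SST-RMA normalizes between arrays, so overall differences in signal were largely removed before deposit. The platform annotation gave 1 symbol to 30604 of 72688 probe sets and several to 2146. Symbols were updated through the RefSeq table of GRCm38.p6 (1135 changed, 30602 matched). Where several probe sets carried a symbol (429 genes), the brightest by mean over the arrays stood for the gene.

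The 16232 genes whose mean exceeded the median over all probe sets (6.14) entered a limma fit of EKO minus control without covariates (limma 3.58.1, R 4.3.3), adjusted by Benjamini-Hochberg, with 0.05 as the threshold. The number of arrays limits the precision. Relations over arrays used an exact permutation test over all 40320 pairings, or 576 within groups, adjusted over all 22 relations. The fit and the permutation test were tested on simulated data. The members, the 13 gene lists and the tests were chosen with earlier results of these data known. Named are all members, Mef2c, the genes of the wider family, up to 4 genes of each list with the smallest p, and the 10 genes (3 for each other member) of most similar pattern. Genes named as examples of a marker list, and list genes shown for their array values, were chosen after their values were seen. The 6 relations between Bcl2a1 probe sets and that to NF-kB inducible genes were added to the planned 15. Upstream sequences were searched and aligned with Biopython 1.88.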

Additional observations from a re-analysis of the deposited data

Results flagged for a closer look

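In 48 groups of 4 arrays, namely the 8 family genes, the shared Bcl2a1 probe set and 15 gene lists in each group, 6 values stood far from the other 3 by Dixon's ratio, where chance flags about 5% of groups. Among the family genes this was Bak1 on control array 2, at 6.78, against 7.0 to 7.03 on the other control arrays. Control array 2 was also apart in macrophage markers, at 6.87 against 7.47 to 7.55, and in classical monocyte genes, at 8.66 against 8.95 to 9.01. Control array 1 was apart in p53 targets, at 9.05 against 9.28 to 9.32, and in smooth muscle markers, at 7.52 against 7.84 to 7.86. EKO array 2 was apart in lymphocyte markers, at 7.29 against 6.58 to 6.65. Without control array 2 the difference of Bak1 was -0.09. Bcl2a1a, Bcl2a1d and the shared Bcl2a1 probe set were not among these values, and Bcl2a1c was not checked.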

How the results depend on the processing

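The count of genes past the threshold was 0 in the comparison as reported and in all 17 alternatives. The alternatives were the level filter, the scaling, the probe set choice, the variance model, array weights, adipocyte markers as a covariate, the replicate block and each array left out. At an unadjusted p under 0.05 the count ran from 969 without EKO array 2 to 2002 without EKO array 1 among the fits of all 16232 genes, and was 2714 of 30063 without a level filter and 808 of 8800 with the stricter one. The differences of Bcl2, Mcl1, Bcl2a1a, Bcl2a1d and Bcl2l11 kept their sign in every alternative run, and those of Bcl2l1 (0.01), Bak1 (-0.03) and Bbc3 (-0.01) did not. With the replicate number as a block, paired by number alone, the difference of Bcl2a1a was again 1.61 but its SE was 0.13 in place of 0.72, and for Bcl2a1d 0.15 in place of 0.34, while 0 genes passed. The labels do not say whether a number marks a shared litter or day, and over all genes tested the deviations of same-numbered arrays correlated at -0.16, 0.206, -0.242 and 0.13, so the number was not taken as a pairing. No EKO array deviated most like the control array of its own number. None of the 10 relations of the Bcl2a1 mean to the lists passed in any alternative, including Bcl2a1a alone, which was chosen after seeing the data. With each array left out in turn, r with neutrophil markers ran from -0.232 to 0.317, turning sign, and r with macrophage markers from 0.0362 to 0.778. Without the 2 arrays farthest from the median of a list, the sign turned for macrophage (-0.355), smooth muscle (-0.584) and fibroblast markers (0.451). In that setting r with adipocyte markers was 0.612. The stricter filter gave no value for Bcl2a1d, Bak1, Bbc3 and Bcl2l11, whose means lay under it. Among the 6 pairs of Bcl2a1 probe sets r ran from 0.690 to 0.984 with each array left out. Probes near the negative control level limit what can be read of Bak1, Bbc3, Bcl2l11, Bcl2a1d and Bcl2a1c.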

Other observations

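Genes known from monocytes were looked at after the pattern of Bcl2a1 had been seen, so they are given as values only. Of 8 genes of non-classical monocytes 7 were above the level filter, 6 higher and 1 lower in EKO aortas, 0 past the threshold, with a median difference of 0.59. Their mean was 10.18, 9.19, 9.39 and 9.85 on EKO arrays 1 to 4, against 9.64, 8.61, 9.17 and 9.51 on control arrays 1 to 4, with arrays 1 and 4 highest in each group as in Bcl2a1a. Treml4, a receptor of myeloid cells, read 8.57, 6.38, 7.04 and 7.44 on EKO arrays 1 to 4, against 7.05, 6.08, 6.07 and 6.62 on control arrays 1 to 4. It lay above the negative control median on 2 of the 8 arrays. The fractalkine receptor gene Cx3cr1 read 9.30, 8.18, 8.02 and 9.01 on EKO arrays 1 to 4, against 8.40, 7.37, 7.64 and 8.34 on control arrays 1 to 4. Itgal, an integrin gene of leukocytes, read 8.80, 7.88, 7.70 and 8.59 on EKO arrays 1 to 4, against 8.07, 6.55, 7.23 and 8.14 on control arrays 1 to 4. Not every gene of the list had this pattern. Spn read 8.46, 8.53, 8.02 and 8.14 on EKO arrays 1 to 4, with array 2 the highest. Nr4a1, the gene that was lower in EKO aortas (-0.31), read highest on control array 3, at 12.06.

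The list also holds Ace and Nr4a1, which endothelium expresses, and Ace lay between 17.24 and 17.62 on all 8 arrays. Of 8 genes of classical monocytes 6 were tested, 5 higher and 1 lower, 0 past the threshold, with a median of 0.09. Their mean was highest on EKO array 2, at 9.24, against 8.86 to 8.96 on the other EKO arrays and 8.66 to 9.01 on control arrays. Ly6c2, the brightest of the 6, read 15.97 on EKO array 2. It read 14.54 to 15.48 on the other EKO arrays and 14.79 to 15.38 on control arrays. Ccr2 and F13a1 lay above the negative control median on 0 of the 8 arrays. How far this list reads classical monocytes was not tested. The part of monocytes in the Bcl2a1 values was not tested.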
